A study of Mus musculus with 4 samples.

Results

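Neuromesodermal progenitors (NMPs) were taken from single-cell libraries of the caudal region of mouse embryos at E8.5. A cell was counted as an NMP when its raw counts of unique molecular identifiers (UMIs, 1 per captured RNA molecule) held at least 2 of *Nkx1-2*, at least 1 of *Sox2*, at least 1 of *T* and at most 1 of *Tbx6*. These 4 measured counts, and no others, chose the cells. Only cells of good quality were considered, with a minimum of 3000 genes and of 7500 UMIs and no more than 7% of UMIs from mitochondrial genes. Of 20198 such cells, 2709 (13.4%) met the rule. They were 780 and 758 cells in WT libraries 1 and 2, and 579 and 592 cells in *Grhl3*-null libraries 1 and 2.

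Embryos came from *Grhl3*+/- mice intercrossed on a C57BL/6 background. The caudal regions were trypsinised, and then the cells of 5 WT embryos formed 1 pool and those of 3 *Grhl3*-null embryos formed the other. From each pool 2 libraries were made with a 3′ 10x Genomics kit. The 2 libraries of a genotype therefore hold cells of the same embryos, so that the p-values below measure the spread between reactions and contain no spread between embryos. The null allele is carried in every cell of the embryo and removes *Grhl3*, a Grainyhead-like transcription factor needed for neural tube closure.

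NMPs lie beside the node and primitive streak and give rise to both spinal cord and paraxial mesoderm as the body axis grows. They hold *T* (brachyury), a T-box factor of the streak and mesoderm, together with *Sox2*, an SRY-box factor of neural and pluripotent cells. Canonical WNT and FGF signals maintain them, *Nkx1-2* is a homeobox gene of the caudal lateral epiblast and preneural tube, and *Tbx6* marks the cells that have turned to presomitic mesoderm.

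The sequences just before the starts of the 3 genes that had to be present are shown because WNT-responsive TCF/LEF factors and the caudal factors *Cdx1*, *Cdx2* and *Cdx4* act in these cells. Each window holds 250 bases before the RefSeq start, 5′ to 3′ along the gene's strand, in GRCm38.p6: chr7:132599638-132599887 on the minus strand for *Nkx1-2*, chr17:8434173-8434422 on the plus strand for *T* and chr3:34649745-34649994 on the plus strand for *Sox2*. Capitals mark matches to CTTTGA, a form of the core of the TCF/LEF motif, or to the letters TTTATG, a Cdx motif, each searched on both strands.
Nkx1-2: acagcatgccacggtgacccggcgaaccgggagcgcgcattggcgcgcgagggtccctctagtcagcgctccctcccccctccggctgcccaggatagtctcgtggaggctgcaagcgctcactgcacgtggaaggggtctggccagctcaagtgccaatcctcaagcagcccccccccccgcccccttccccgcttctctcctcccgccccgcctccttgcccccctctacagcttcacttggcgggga
T: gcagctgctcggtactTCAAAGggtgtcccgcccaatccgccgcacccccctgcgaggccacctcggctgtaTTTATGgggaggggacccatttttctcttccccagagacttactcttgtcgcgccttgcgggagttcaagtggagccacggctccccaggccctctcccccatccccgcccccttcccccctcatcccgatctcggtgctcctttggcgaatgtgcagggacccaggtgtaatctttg
Sox2: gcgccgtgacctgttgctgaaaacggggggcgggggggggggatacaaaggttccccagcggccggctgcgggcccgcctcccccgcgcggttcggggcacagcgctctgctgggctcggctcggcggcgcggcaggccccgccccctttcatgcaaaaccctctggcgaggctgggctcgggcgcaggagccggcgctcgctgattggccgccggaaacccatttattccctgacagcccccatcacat
The *T* window held 1 match to each motif, which began 234 and 178 bases before the start, and the 2 matches did not overlap. The *Nkx1-2* and *Sox2* windows held 0 matches to either set of letters. Other forms of the TCF/LEF core were not searched. Of 32851 RefSeq windows of the same length, 13.8% held a TCF/LEF match and 10.8% a Cdx match. A match describes the letters only.

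The filtered cells of the 4 libraries held between 209833527 and 226723903 UMIs per library. NMPs were deeper than the rest, with a median of 41523.5 to 47761 UMIs per cell against 32413 to 37349 in all other filtered cells. Any 2 libraries shared only 7 to 16 cell barcodes. The calling program marked under 0.05% of cells as doublets, so the 5% of cells with the highest doublet scores in each library were taken instead, and they made up 8.59% and 7.78% of WT NMPs and 11.1% and 10.3% of *Grhl3*-null NMPs, against 4.20% to 4.84% of the other cells. By *Xist* and 4 Y-linked genes, 26.6% and 25.9% of the sexed WT NMPs were male, against 46.2% and 49.7% of the *Grhl3*-null NMPs. Sex marks different embryos within a pool, and the genotype comparison was therefore also made within male and within female cells, where the embryos compared are fewer still.

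In most NMPs the rule genes stood above the minimum. *Nkx1-2* had a median of 7 UMIs per cell in all 4 libraries. *T* had a median of 3 UMIs in WT library 1 and of 4 in each of the other libraries, and 20.2% to 24.6% of the NMPs of a library held exactly 1 *T* UMI. *Sox2* had medians of 5, 6, 7 and 6 UMIs in the same order of libraries, with 8.81% to 12.2% of cells at exactly 1. For *T* this matters, since RNA set free in the droplet suspension reaches cells that do not make it. *T* was counted in 40.6% and 43.8% of the endothelial cells of the WT libraries and in 28.1% and 36.8% of those of the *Grhl3*-null libraries, at a median depth of 35282 to 40555.5 UMIs. Endothelial cells should lack *T*, but 2.83% to 10.5% of those of a library held 5 or more *T* UMIs. Whether the endothelial *T* was free RNA was not tested. In a single NMP a *T* count of 1 UMI cannot be told apart from this background.

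Levels are given as CPM, the UMIs of a gene per 1000000 UMIs summed over the NMPs, or other named cells, of a library. They are 3′ counts and are compared between cells or libraries and not between genes. The label was checked with *Fgf8* and *Hes3*, a pair of markers that the rule did not use. Across NMPs *Fgf8* went with *T* and *Hes3*, more weakly, with *Sox2*, so neither check is independent of the rule. *Fgf8*, the FGF ligand of the caudal epiblast, stood at 283 and 317 CPM in WT NMPs and at 306 and 328 CPM in *Grhl3*-null NMPs. It was counted in 90.6%, 88.7%, 87.9% and 88.2% of the NMPs, against 20.2% to 32.1% of endothelial cells. *Hes3*, a HES-family repressor of early neural progenitors, stood at 86.0 and 85.3 CPM in WT NMPs and at 75.5 and 73.4 CPM in *Grhl3*-null NMPs. It was counted in 77.0% to 81.1% of the NMPs of a library and in 2.63% to 9.52% of endothelial cells. Both genes together were found in 69.9% to 74.1% of NMPs, and neither marker went against the label.

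A pair of neighbouring populations was used for comparison. Preneural cells met the same rule but held 0 *T* UMIs (1087 cells), and presomitic cells held at least 3 *Tbx6* UMIs and at least 1 *T* UMI (3117 cells). *Fgf8* separated NMPs from preneural cells, in which it ranged from 30.4 to 53.5 CPM, and *Hes3* separated NMPs from presomitic cells, in which it ranged from 6.93 to 13.5 CPM. Preneural cells were chosen for 0 *T* UMIs and *Fgf8* goes with *T* across cells, so the *Fgf8* separation is not independent of the rule. Presomitic cells were not required to hold *Sox2*, with which *Hes3* went across NMPs, so the *Hes3* separation is not independent either. *Wnt3a*, a canonical WNT ligand of the tail bud, stood at 23.6 to 29.3 CPM in NMPs, 3.6 to 7.04 CPM in preneural cells and 27.7 to 37.3 CPM in presomitic cells. NMPs thus shared *Fgf8* and *Wnt3a* with the presomitic side and *Hes3* with the preneural side.

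**Figure D1:**
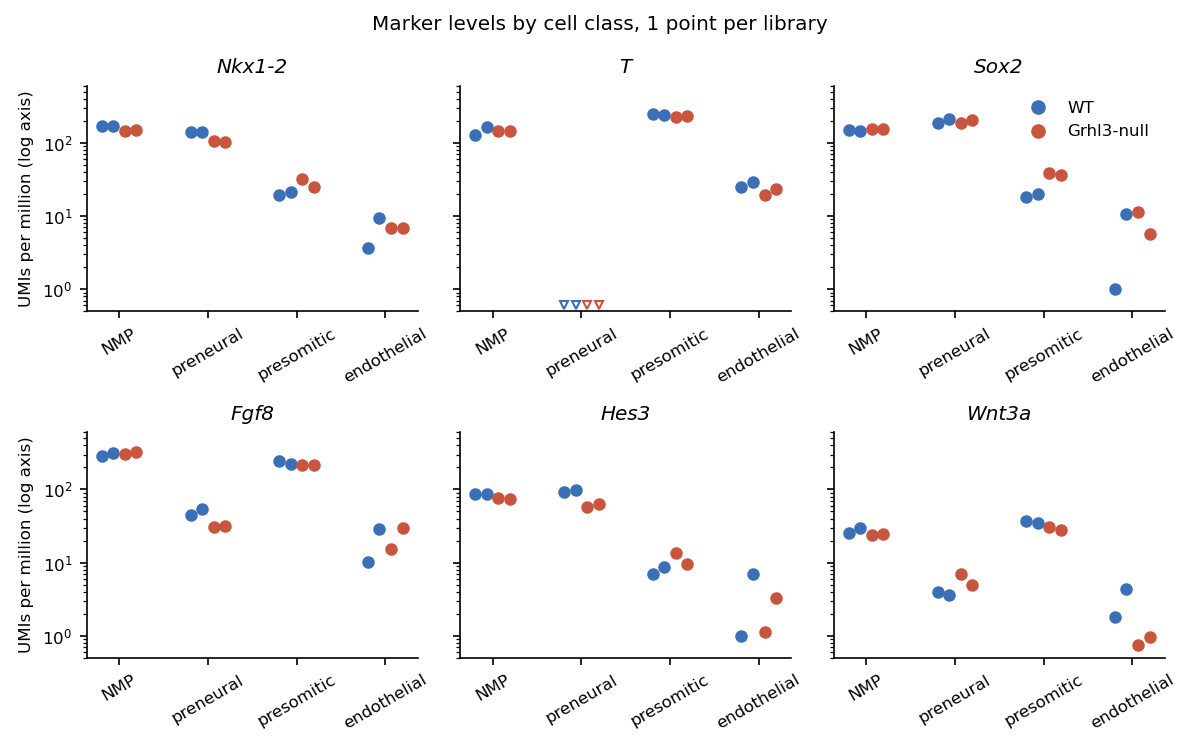
Levels of the 5 markers and of *Wnt3a* in NMPs, preneural, presomitic and endothelial cells, in CPM on a log axis, with 1 point per library and WT and *Grhl3*-null libraries in separate colours. *Hes3* is at 73.4 to 86.0 in NMPs and at 6.93 to 13.5 in presomitic cells, and *Fgf8* is at 283 to 328 in NMPs and at 30.4 to 53.5 in preneural cells; *Nkx1-2*, *T* and *Sox2* were part of the rule.

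The cells just inside and just outside each threshold were compared by *Fgf8* and *Hes3*, which the rule did not use. Neither is independent of the rule, because *Fgf8* went with *T* and *Hes3* with *Sox2* across NMPs. The 276 NMPs with exactly 2 *Nkx1-2* UMIs had 213 to 232 CPM of *Fgf8*, and the 338 cells that failed only by holding 1 *Nkx1-2* UMI had 216 to 246 CPM, while *Hes3* was at 45.3 to 61.6 CPM inside and at 17.2 to 37.5 CPM outside. The 278 NMPs with 1 *Sox2* UMI had 334 to 360 CPM of *Fgf8*, against 100 to 150 CPM in the 523 cells that lacked only *Sox2*. The 618 NMPs with 1 *T* UMI had 67.8 to 80.2 CPM of *Fgf8*, against 30.4 to 53.5 CPM in the 1087 preneural cells. The *Hes3* level of those 618 NMPs was 85.6 and 95.2 CPM in the WT libraries, against 92.4 and 98.8 CPM in WT preneural cells, and 88.8 and 89.7 CPM in the *Grhl3*-null libraries, against 57.6 and 62.3 CPM in *Grhl3*-null preneural cells. At the *Tbx6* limit, the 484 NMPs with 1 *Tbx6* UMI and the 215 cells just outside had overlapping *Fgf8* levels of 345 to 428 and 315 to 512 CPM. Their *Hes3* level was 69.3, 77.0, 51.3 and 46.2 CPM inside and 55.3, 38.6, 40.3 and 32.6 CPM outside, lower outside in each library.

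Beside the rule genes, the genes with the largest fold of NMPs over all other filtered cells were largely factors and signals of caudal epiblast and neural plate. Folds are log2 ratios with 5 CPM added to both levels, as means over 4 libraries, and they describe the cells with no test. *Nkx1-2* (2.42) and *Sox2* (1.78) reflect the rule. *Hes3* followed *Nkx1-2* at 2.27, and *Zic5*, a zinc-finger gene of the neural plate, had a fold of 1.79. *Sox3*, the close relative of *Sox2*, stood at 1.56 and *Sp8*, an Sp-family factor induced by WNT, at 1.51. The FGF ligands *Fgf8* (1.49) and *Fgf17* (1.29) were both among the first 20. So were *Epha5*, an ephrin receptor (1.77), *Pmaip1*, the pro-apoptotic p53 target Noxa (1.77), and *Lix1* (1.72). Of 15 NMP marker genes that the study drew from these same samples, 8 were among the first 20 and 14 among the first 100. That overlap is not independent, because the cells are the same.

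NMPs differed among themselves along the balance of *T* and *Sox2*. NMPs with more *T* than *Sox2* UMIs made up 38.2% and 41.7% of the WT NMPs and 39.7% and 42.4% of the *Grhl3*-null NMPs, with overlapping ranges of the genotypes. NMPs with more *Sox2* than *T* made up 50.1% to 56.3%. Across the cells of a library, Pearson's r of the log levels of *T* and *Sox2* was between -0.35 and -0.29, over 579 to 780 cells. For *T* and *Fgf8* it was between 0.69 and 0.76, and for *Sox2* and *Hes3* between 0.26 and 0.34. The points of each value share a library and a depth correction, so the values are descriptions.

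The *T*-rich NMPs carried the signals of the streak. *Cyp26a1*, the enzyme that clears retinoic acid, stood at 196 to 213 CPM in them and at 30.9 to 35.8 CPM in the *Sox2*-rich NMPs, a log2 ratio of 2.44. *Rspo3*, a secreted amplifier of WNT signalling, was at 311 to 328 against 70.4 to 81.8 CPM. *Wnt3a* was at 45.2 to 50.3 against 9.37 to 11.6 CPM, and *Fgf8* at 488 to 526 against 155 to 168 CPM. None of these 4 ranges overlapped between *T*-rich and *Sox2*-rich cells in any library. The genes were chosen for the largest ratios with the same sign in all libraries, so this describes the choice. *Cdkn1a*, the cell-cycle inhibitor p21, and the factors *Lmo2* and *Ets2* were also higher in *T*-rich NMPs, by 1.70, 1.58 and 1.45 on the log2 scale. The haemoglobin gene *Hba-x* averaged 1.68 but was near 0.00 in its lowest library.

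The *Sox2*-rich NMPs carried neural genes. *Ptprz1*, a receptor phosphatase of neural progenitors, stood at 31.9 to 47.6 CPM in them and at 4.78 to 8.58 CPM in *T*-rich NMPs. *Pax6*, a homeobox factor of the neural tube, was at 19.3 to 37.9 against 4.71 to 9.81 CPM. *Olig3* and *Nkx6-1*, factors of dorsal and ventral neural progenitors, had log2 ratios of -1.71 and -1.27, and *Fgfr2*, an FGF receptor, of -1.25. Of 17 neural genes listed, 15 were higher in the *Sox2*-rich NMPs in all 4 libraries and 0 in the *T*-rich NMPs, with a median log2 ratio of -0.92. Of 14 WNT targets and feedback genes, 9 were higher in *T*-rich NMPs in all libraries and 3 in *Sox2*-rich NMPs. Over all 7626 genes of at least 10 CPM, 1358 were higher in the *T*-rich and 1926 in the *Sox2*-rich NMPs, with a median of -0.01. Of 16 S-phase genes, 15 were higher in *Sox2*-rich NMPs, with a small median of -0.10. *Nkx1-2* itself had a log2 ratio of only -0.20.

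**Figure D2:**
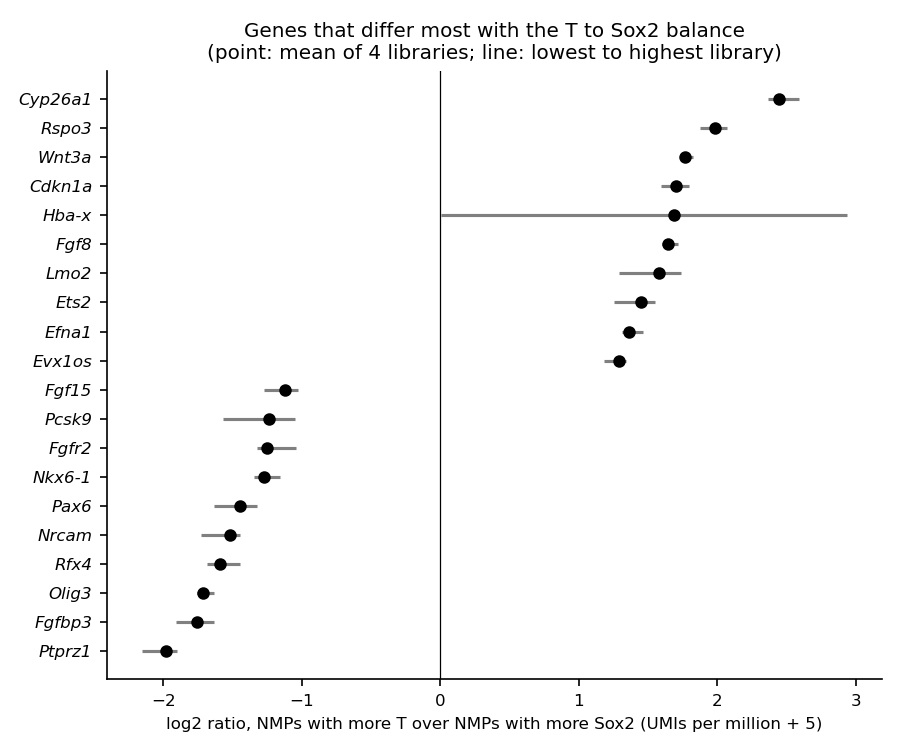
The 10 genes most enriched in NMPs with more *T* than *Sox2* UMIs and the 10 most enriched in NMPs with more *Sox2*, as log2 ratios with 5 CPM added. Points are means of 4 libraries and lines run from the lowest to the highest library. *Cyp26a1* is at 2.44 and *Ptprz1* at -1.98; the line of *Hba-x* reaches 0.

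The share of NMPs among filtered cells was 14.3% (95% exact Clopper-Pearson interval 13.4 to 15.2) and 14.8% (13.9 to 15.8) in the WT libraries. In the *Grhl3*-null libraries it was 12.0% (11.1 to 12.9) and 12.4% (11.5 to 13.3). The groups did not overlap, with means of 14.6% ± 0.373 and 12.2% ± 0.300 (SD, n = 2 libraries each). The difference was -2.38 percentage points, and the two-sided exact permutation test gave p = 0.3333, the smallest that 2 against 2 libraries allow. The intervals cover counting error only. Within male cells the share was 14.5% and 14.3% in WT and 9.57% and 10.1% in *Grhl3*-null libraries. Within female cells it was 14.4% and 15.2% in WT against 13.9% and 13.9% in *Grhl3*-null libraries, a difference of -0.867 points. When every cell was thinned to 7500 UMIs before the rule was applied, the share was 2.23% and 2.37% in WT and 1.71% and 2.01% in *Grhl3*-null libraries.

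Of the cells that met the *Nkx1-2*, *Sox2* and *Tbx6* limits, the share that also held *T*, and so were NMPs, was 76.0% and 75.4% in WT libraries. It was 64.0% and 68.8% in *Grhl3*-null libraries, a difference of -9.32 points between the means (exact permutation p = 0.3333, two-sided, the smallest possible). The groups did not overlap. Among male cells the shares were 79.8% and 71.2% against 56.6% and 63.0%, and among female cells 75.1% and 77.0% against 68.1% and 72.4%. After thinning, the shares were 45.2% and 44.0% against 40.5% and 48.5%, where the groups overlapped and the exact permutation test gave p = 1. NMPs of *Grhl3*-null libraries were deeper than those of WT libraries (a median of 47761 and 44793.5 UMIs per cell against 41523.5 and 41683), and the part of depth in the unthinned difference was not tested further.

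**Figure D3:**
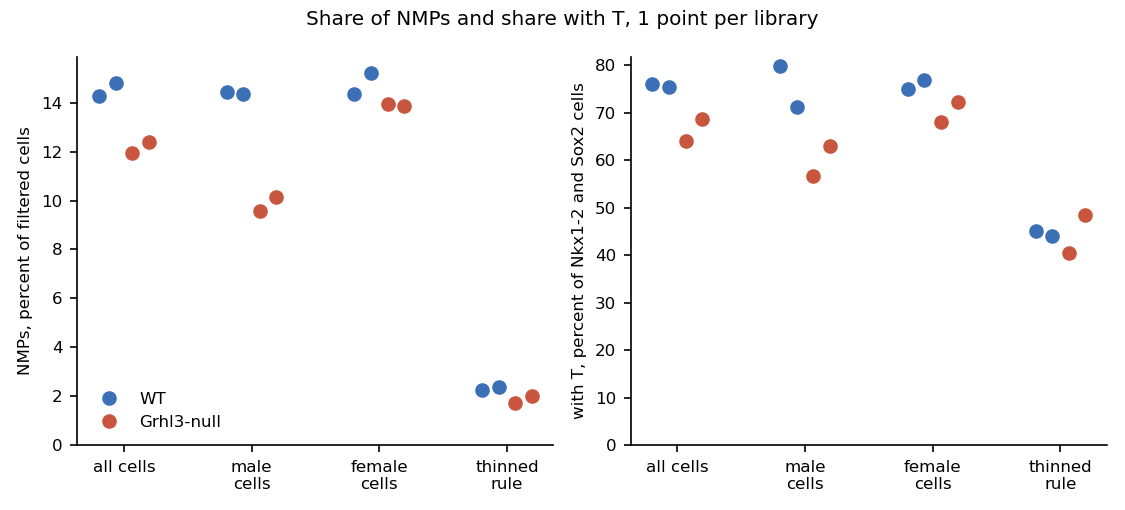
Left, NMPs as a percent of filtered cells; right, the percent with *T* among cells with *Nkx1-2* and *Sox2*; 1 point per library, for all cells, male cells, female cells and after thinning to 7500 UMIs. The NMP share is 14.3 and 14.8 in WT and 12.0 and 12.4 in *Grhl3*-null libraries, and after thinning the share with *T* overlaps between genotypes.

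Gene levels of *Grhl3*-null and WT NMPs were compared on UMIs summed over the NMPs of each library, with the edgeR quasi-likelihood test over 13978 genes and Benjamini-Hochberg adjustment. All adjusted p-values and calls (adjusted p under 0.05) for genes below come from this test unless another is named. *Grhl3* was read first. It had 276 and 268 UMIs in WT NMPs, or 6.87 and 6.64 CPM, and was counted in 17.7% and 20.8% of the cells. In *Grhl3*-null NMPs it had 4 and 9 UMIs, or 0.116 and 0.275 CPM, with a log2 fold change of -5.12 ± 0.23 (SE, adjusted p = 8.9e-06). WT endothelial cells held 2 and 1 *Grhl3* UMIs, in 1.89% and 0.952% of cells, and *Grhl3*-null endothelial cells 0. The part of the gene that the null allele lacks was not given in the sources used here, so a 3′ count checks the label only as far as it reads that part. Of its paralogues, *Grhl2* was lower by 0.55 on the log2 scale (adjusted p = 0.042), a call lost in 11 of 15 alternatives and in each sex alone, and *Grhl1* was not called at 0.232 to 0.498 CPM.

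In all, 1220 genes (8.73%) were higher and 1604 (11.5%) lower in *Grhl3*-null than in WT NMPs, together 20.2% of the genes tested. A change of at least 2-fold was found in 103 higher and 101 lower genes, or 1.46%. DESeq2 called 433 higher and 740 lower. Male NMPs alone gave 271 higher and 253 lower of 12067 genes (4.34% in all, 2.25% higher and 2.1% lower), and female NMPs alone 973 higher and 1322 lower of 12834 (17.9% in all, 7.58% higher and 10.3% lower). Of the 2707 called genes that were tested in both sexes, 1859 (68.7%) had the same direction in both and 137 were called in both. Beside a background of 20.2%, small changes in a list of genes are common here, and sizes and sex-wise values are given for that reason.

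Genes of the NMP network were called often, with small changes. Of the 13 network genes that the rule did not use, 1 was higher, 5 were lower and 7 were not called, so that 46.2% were called beside 20.2% of all genes. Their median log2 fold change was -0.09, against 0.01 over all genes tested, and the called ones lay between -0.36 and 0.21. *T* stood at 128 and 164 CPM in WT and 144 and 148 CPM in *Grhl3*-null NMPs, with overlapping groups (log2 fold change -0.02). *Sox2* was at 150 and 146 CPM against 156 and 154 CPM (0.05). *Nkx1-2* was at 168 and 168 CPM in WT and 144 and 149 CPM in *Grhl3*-null NMPs (-0.21). The rule required these 3 genes in every cell, so their levels are a description with no test. The rule did not count *Fgf8*, but *Fgf8* went with *T* across NMPs (Pearson's r of 0.69 to 0.76). It was not called at a log2 fold change of 0.06 ± 0.05 (adjusted p = 0.44), a value that is not independent of the rule.

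*Hes3* was lower by 0.22 on the log2 scale (adjusted p = 0.0043). It went with *Sox2* across NMPs (Pearson's r of 0.26 to 0.34), so this value is not independent of the rule. *Sp5*, a direct WNT target, stood at 94.3 and 111 CPM in WT and 77.7 and 85.0 CPM in *Grhl3*-null NMPs, a log2 fold change of -0.36 ± 0.07. *Cdx1*, a caudal homeobox gene, fell by 0.30 on the log2 scale, from 117 and 119 to 95.9 and 97.8 CPM. Its relative *Cdx2*, named after its values were seen, was at 353 and 375 against 319 and 326 CPM (log2 fold change -0.19). Groups did not overlap for any of these 4 genes. *Sp5* and *Cdx1* were named because they were called, so for them and for *Cdx2* this adds no support. The share of all genes without overlap was not counted. *Hes3* and *Cdx2* were called in male NMPs and had log2 fold changes of -0.07 and 0.02 in female NMPs, not called.

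The sexes differed in these regulators. In male NMPs *T* was at 159 and 191 CPM in WT and 140 and 145 CPM in *Grhl3*-null libraries, and in female NMPs at 118 and 155 against 165 and 176 CPM. *Fgf8* was at 360 and 330 against 281 and 325 CPM in male NMPs, and at 271 and 324 against 402 and 396 CPM in female NMPs. The mean levels of both genes were lower in male and higher in female *Grhl3*-null NMPs. The difference of the fold changes, male minus female, was -0.58 for *Fgf8* in an edgeR model with a genotype by sex term. It was also -0.58 for *T* and 0.26 for *Nkx1-2*. These values are given with no test, because the rule used *T* and *Nkx1-2*, and *Fgf8* went with *T* across NMPs. That model was added after the data were seen, and it called 13.1% of 12488 genes. *Nkx1-2* had male levels of 164 to 174 CPM in all 4 libraries and female levels of 178 and 182 CPM in WT against 155 and 157 CPM in *Grhl3*-null libraries. *Cdx1* was at 117 and 129 against 86.4 and 90.2 CPM in female NMPs and at 126 and 102 against 119 and 124 CPM in male NMPs, where the groups overlapped, and the difference was 0.62 (adjusted p = 1.2e-04).

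Among FGF ligands, 1 of 6 tested was higher and 2 were lower. *Fgf17*, a relative of *Fgf8*, was at 147 and 153 CPM in WT and 115 and 120 CPM in *Grhl3*-null NMPs (log2 fold change -0.37 ± 0.03, adjusted p = 3.0e-04). Its log2 fold change was -0.39 in male NMPs and only -0.055 in female NMPs, where it was not called (adjusted p = 0.50). *Fgf18* was lower by 0.18 and *Fgf15*, a ligand of neural progenitors, higher by 0.34 on the log2 scale. Of 13 FGF receptors and feedback genes, 4 were higher and 2 lower, with a median of 0.07. *Fgfr2* was at 13.7 and 15.4 CPM in WT and 18.8 and 19.0 CPM in *Grhl3*-null NMPs (0.36). *Etv4*, an ETS factor induced by FGF, was at 91.3 and 105 against 76.0 and 84.4 CPM (-0.31). The changes of *Fgf15*, *Fgf18* and *Fgfr2* had opposite signs in male and female NMPs.

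Among WNT ligands, 0 were higher and 5 lower of 8, with a median log2 fold change of -0.40. *Wnt8a*, a ligand of the primitive streak, was at 8.07 and 8.95 CPM in WT and 4.18 and 4.44 CPM in *Grhl3*-null NMPs (log2 fold change -0.999 ± 0.10, adjusted p = 4.7e-04). Its male log2 fold change was 0.15, so that direction did not hold in male cells. *Wnt7b*, a ligand of surface epithelia, fell by 1.59 on the log2 scale, from 67 and 58 UMIs to 25 and 10. *Wnt3*, needed for streak formation, fell by 1.17, from 55 and 87 to 20 and 33 UMIs, and *Wnt6*, an ectodermal ligand, by 0.56. With the rule applied after thinning, *Wnt6* was called in the other direction, with a log2 fold change of 0.85 (adjusted p = 0.025). *Wnt3a* was not called (log2 fold change -0.19 ± 0.06, adjusted p = 0.071). Of 14 WNT targets and modulators, 1 was higher, 3 were lower and 10 were not called. *Notum*, an enzyme that inactivates WNT proteins, was among those lower, at 26.5 and 26.0 against 20.2 and 22.0 CPM.

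Genes of retinoic acid supply and response were partly higher, with 4 of 10 called higher and 1 lower. *Aldh1a2*, the enzyme that makes retinoic acid in somites and presomitic mesoderm, was at 20.8 and 14.6 CPM in WT and 39.6 and 37.4 CPM in *Grhl3*-null NMPs (log2 fold change 1.10 ± 0.12, adjusted p = 8.0e-04). *Rarb*, a receptor gene induced by retinoic acid, was at 3.06 and 2.88 against 5.66 and 5.20 CPM (0.85), with log2 fold changes of 0.81 in male and -0.021 in female NMPs, neither called. *Cyp26a1* was not called, with a log2 fold change of 0.00 ± 0.08. In male NMPs *Aldh1a2* was at 10.1 and 9.63 against 32.3 and 31.8 CPM, and in female NMPs at 14.6 and 12.8 against 18.6 and 11.2 CPM. The female groups overlapped, and the male and female fold changes differed (1.61, adjusted p = 4.9e-06).

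Of 11 Notch pathway genes, 3 were higher and 2 lower. *Dll1*, a Notch ligand, was at 12.1 and 13.7 CPM in WT and 19.8 and 18.0 CPM in *Grhl3*-null NMPs (log2 fold change 0.54 ± 0.07). *Hes5*, a Notch target of neural progenitors, was at 31.2 and 30.4 against 40.5 and 45.7 CPM (0.47), but its male log2 fold change was -0.25. *Nodal*, a TGF-beta ligand of the early streak, had 30 and 54 UMIs in NMPs of the WT libraries but only 3 and 2 in those of the *Grhl3*-null libraries (adjusted p = 0.0021), too few for a fold. It was 1 of 2 genes lower among 13 BMP and Nodal pathway genes, of which 2 were higher.

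Posterior Hox genes were among the largest falls of genes with a mean of at least 10 CPM. Hox genes are arranged in 4 clusters, and genes of the highest paralogue numbers, 9 and above, are turned on last and most caudally. *Hoxc10* was at 71.1 and 67.5 CPM in WT and 1.97 and 1.74 CPM in *Grhl3*-null NMPs (log2 fold change -5.23 ± 0.07, adjusted p = 1.2e-09). It was counted in 35.0% and 35.4% of WT and 6.04% and 5.07% of *Grhl3*-null NMPs, beside 14.2% and 19.0% of WT and 6.14% and 9.43% of *Grhl3*-null endothelial cells, so the *Grhl3*-null share lay at or below that background. *Hoxa10* was at 22.7 and 21.3 against 2.44 and 1.99 CPM (-3.33 ± 0.10). *Hoxd9* was at 33.1 and 38.3 against 12.6 and 13.2 CPM (-1.49 ± 0.07).

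Other members of the HoxA and HoxD clusters were lower at lower counts. *Hoxd10* fell by 3.01 on the log2 scale, from 157 and 122 UMIs to 18 and 11, and *Hoxa11* by 2.27, from 33 and 25 to 7 and 3 UMIs. *Hoxd8* fell by 0.72, a fall not found in cells without *Hoxc10* (0.0014). In all, 9 of 34 tested Hox genes were lower and 8 higher, with a median of -0.01. The higher ones rose by 0.17 to 0.34 on the log2 scale. *Hoxb9*, named after its values were seen, was at 322 and 332 CPM in WT and 417 and 422 CPM in *Grhl3*-null NMPs (0.34 ± 0.03). Its log2 fold change was 0.0044 in male NMPs, not called (adjusted p = 0.98), and 0.58 in female NMPs.

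The *Hoxc10* fall was present in both sexes with unequal starting levels. In male NMPs *Hoxc10* was at 8.38 and 10.4 CPM in WT and 0.627 and 1.35 CPM in *Grhl3*-null libraries. In female NMPs it was at 102 and 92.8 against 3.20 and 1.76 CPM. The log2 fold changes were -3.22 in male and -5.28 in female NMPs, and their difference was 2.07 (adjusted p = 0.0059). *Hoxa10* followed the same order, at 6.42 and 7.77 against 1.88 and 1.98 CPM in male and 31.0 and 27.9 against 3.27 and 2.26 CPM in female NMPs. *Hoxc10* RNA was therefore unequal between the sexes, and so between embryos, within the WT pool itself. With 1 pool per genotype, differences between embryos and between genotypes cannot be told apart. When cells with *Hoxc10* were left out of all libraries, an alternative added after the data were seen, 925 genes were higher and 1316 lower.

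**Figure D4:**
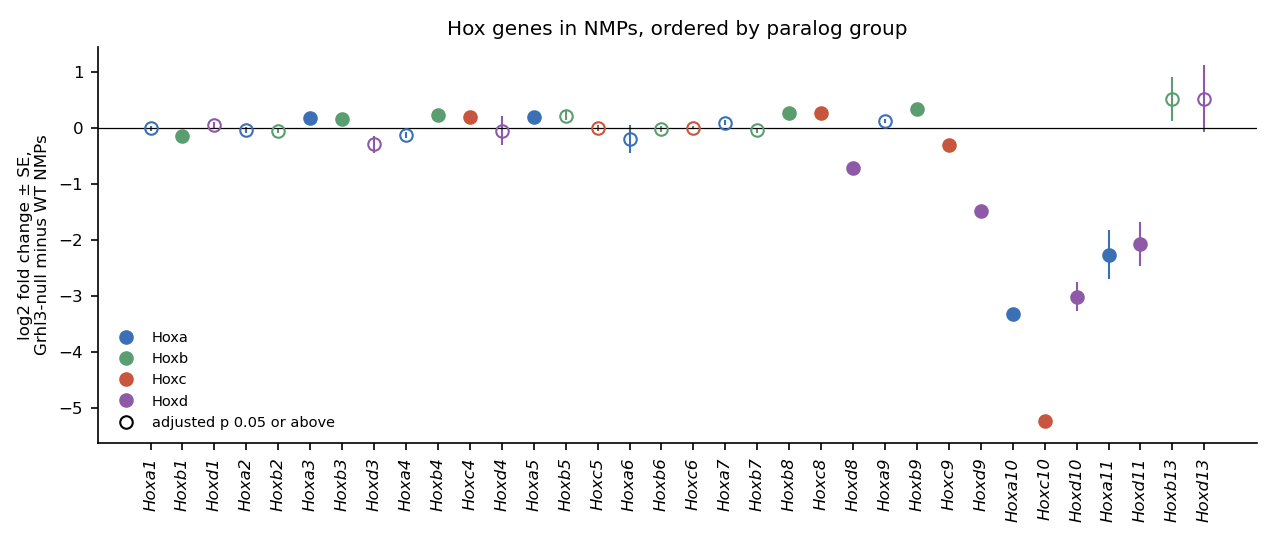
Log2 fold changes ± SE of the Hox genes tested, *Grhl3*-null minus WT NMPs, in order of paralogue group and coloured by cluster; open points have an adjusted p of 0.05 or above. *Hoxc10* is at -5.23, *Hoxa10* at -3.33 and *Hoxd10* at -3.01, while *Hoxb9* is at 0.34.

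Genes of somites and early mesenchyme were among the largest rises. *Meox1*, a homeobox gene of somites, was at 27.5 and 20.3 CPM in WT and 56.8 and 59.8 CPM in *Grhl3*-null NMPs (log2 fold change 1.27 ± 0.11, adjusted p = 2.4e-04). *Tcf15*, a bHLH factor of the epithelial somite, was at 31.3 and 25 against 63.4 and 64.5 CPM (1.17 ± 0.09). The forkhead genes *Foxc2* and *Foxc1*, expressed in paraxial mesoderm, were higher by 1.24 and 0.96, and *Twist1*, a bHLH factor of mesenchyme, by 1.08. Of 8 somite marker genes, 8 were higher, with a median of 1.37. *Pax1*, a sclerotome gene with 16 and 10 UMIs in the WT and 82 and 116 in the *Grhl3*-null libraries, had the largest log2 fold change of that list, 3.16. Groups did not overlap for any gene named in this paragraph. The genes were named because they were called, so this adds no support, and the share of all genes without overlap was not counted.

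For *Meox1*, *Tcf15*, *Foxc2*, *Foxc1* and *Twist1* the rise was called in male NMPs and not in female NMPs, and *Pax1* did not pass the filter on low counts in female NMPs. *Meox1* was at 4.57 and 5.91 CPM in WT and 50.3 and 39.1 CPM in *Grhl3*-null male NMPs, but at 18.3 and 15.8 against 14.7 and 10.1 CPM in female NMPs. The male and female fold changes differed by 3.58 for *Meox1* (adjusted p = 4.0e-11), 3.02 for *Tcf15* (adjusted p = 5.7e-11) and 2.98 for *Foxc2* (adjusted p = 3.1e-07). For *Foxc1* and *Twist1* they differed by 1.41 (adjusted p = 3.0e-04) and 0.997 (adjusted p = 0.0035), and the female log2 fold change of *Twist1* was 0.39. Of the 8 somite markers, 8 were higher in male NMPs with a median of 3.29, and 0 of the 6 tested were called in female NMPs, with a median of -0.04. The summed level of the list was 93.3 and 71.0 CPM in WT and 192 and 199 CPM in *Grhl3*-null NMPs. In male NMPs it was 22.4 and 25.8 against 165 and 131 CPM, and in female NMPs 60.5 and 53.2 against 61.0 and 40.5 CPM.

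NMPs that carried both or neither of the sex signals, 89 to 123 per library, held the most somite RNA, 336 and 222 CPM in WT and 423 and 475 CPM in *Grhl3*-null libraries. Of these cells, 22.8% to 34.8% had doublet scores in the top 5%, and their median depth was 57799 to 83630 UMIs. With the high-scoring cells left out, the summed level over all NMPs was 78.0 and 43.1 CPM in WT and 166 and 194 CPM in *Grhl3*-null libraries, and 8 of 8 genes were still higher. Endothelial cells held 155 and 91.8 CPM in WT and 103 and 101 CPM in *Grhl3*-null libraries of the same 8 genes. WT NMPs lay below and *Grhl3*-null NMPs above that level. The part of doublets and free RNA in the rise was not tested further.

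**Figure D5:**
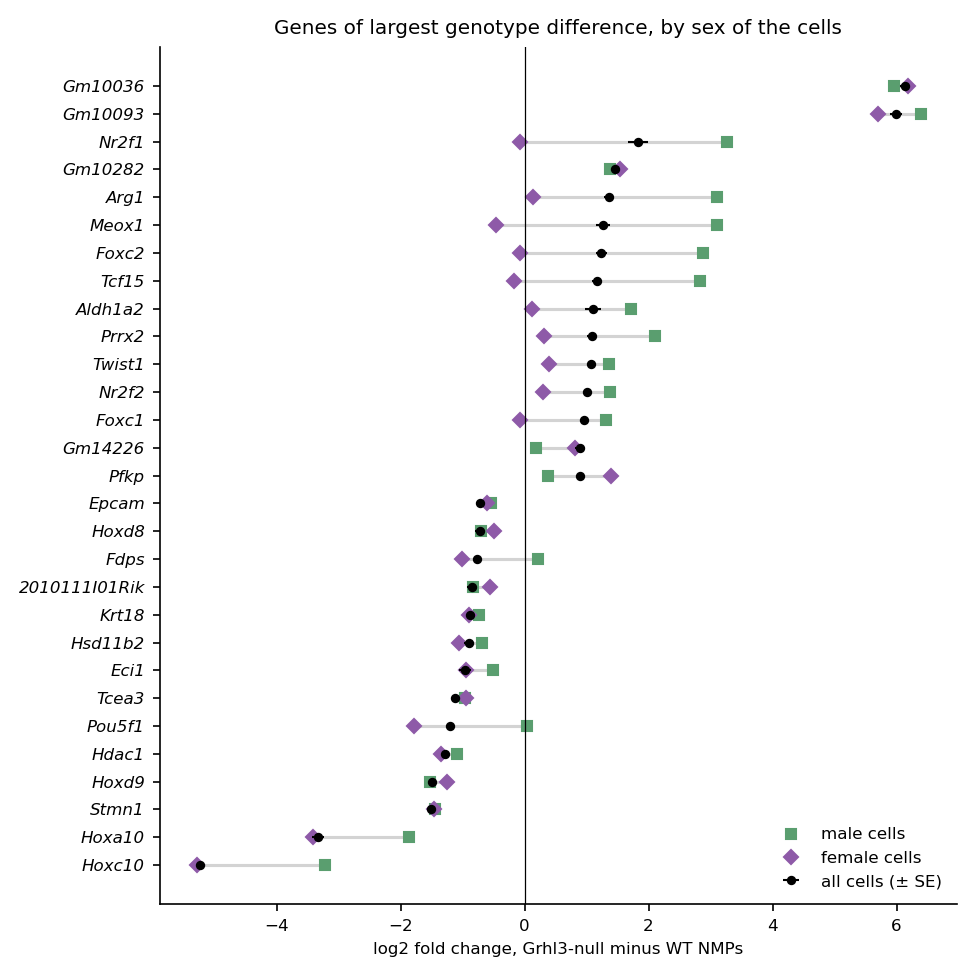
Log2 fold changes of *Grhl3*-null minus WT NMPs for genes of largest rise and largest fall, among those called with a mean of at least 10 CPM. Black points with SE bars are all NMPs, squares male and diamonds female NMPs; *Meox1*, *Tcf15* and *Foxc2* are higher in male and not in female cells, while *Hoxc10*, *Stmn1* and *Hdac1* fall in both.

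Neural genes moved in both directions, with 7 of 17 higher and 4 lower and a median of 0.13. *Pax6* was at 12.9 and 12.5 CPM in WT and 23.5 and 23.4 CPM in *Grhl3*-null NMPs (log2 fold change 0.87 ± 0.05, adjusted p = 3.4e-05). *Pax3*, a factor of dorsal neural plate and somites that was named after its values were seen, was at 28.7 and 30 against 50.3 and 51.7 CPM (0.78 ± 0.04, adjusted p = 1.9e-05). *Pax3* was called higher in both sexes, by 0.52 in male and 0.71 in female NMPs, while *Pax6* was called in neither alone (0.57 and 0.06). *Zic1*, a zinc-finger gene of dorsal neural tube and somites, rose from 8 and 22 UMIs to 89 and 67 (2.61), and *Olig2* from 25 and 19 to 48 and 81 UMIs (1.79). *Fabp7*, a lipid-binding protein of neural progenitors, fell from 4.43 and 4.46 to 1.97 and 2.05 CPM (-1.16 ± 0.13), with log2 fold changes of -0.030 in male NMPs, not called (adjusted p = 0.97), and -2.33 in female NMPs. In male NMPs 6 neural genes were higher and 1 lower, and in female NMPs 2 were higher and 4 lower.

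Of 7 epiblast genes tested, 1 was higher and 2 were lower. *Pou5f1*, the pluripotency factor Oct4 that persists in the caudal epiblast, was at 24.2 and 27.2 CPM in WT and 10.9 and 11.7 CPM in *Grhl3*-null NMPs (log2 fold change -1.20 ± 0.07, adjusted p = 3.4e-05). That fall came from female cells, at 29.5 and 33.2 against 8.83 and 9.72 CPM, whereas male NMPs stood at 14.6 to 15.6 CPM in all 4 libraries. The male and female fold changes differed by 1.82 (adjusted p = 5.2e-08). *Fdps*, an enzyme of sterol and isoprenoid synthesis, had the same form, at 167 and 174 against 84.8 and 86.5 CPM in female NMPs and 77.2 and 72.0 against 83.5 and 88.4 CPM in male NMPs.

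Several epithelial genes were lower. *Krt18*, a simple-epithelium keratin, was at 80.1 and 77.7 CPM in WT and 40.7 and 46.3 CPM in *Grhl3*-null NMPs (log2 fold change -0.88 ± 0.06, adjusted p = 5.5e-05). *Epcam*, an epithelial adhesion molecule, was at 35.7 and 39.7 against 22.2 and 24.2 CPM (-0.72 ± 0.06). *Cdh1*, the gene of E-cadherin, was at 10.4 and 11.8 against 5.49 and 5.42 CPM (-1.04 ± 0.09), and the claudin genes *Cldn3* and *Cldn7* fell by 1.53 and 0.68 on the log2 scale. *Krt18*, *Epcam* and *Cldn7* were called lower in male and in female NMPs. With the rule applied after thinning, *Krt18*, *Epcam* and *Cldn7* had positive log2 fold changes of 0.43, 0.25 and 1.73, over 83 to 122 cells per library, and that of *Cldn7* was called (adjusted p = 0.036).

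The surface ectoderm marker list, to which several of these genes belong, had 5 of 8 lower and 1 higher, with a median of -0.62. *Dlx5*, a homeobox gene of the neural plate border, was the gene that was higher (3.81 and 4.12 against 7 and 9.12 CPM, log2 fold change 1.00). The summed level of the list was 225 and 223 CPM in WT and 137 and 155 CPM in *Grhl3*-null NMPs, against 457 to 590 CPM in all other cells, in which the *Grhl3*-null level was the higher one. In endothelial cells it was 158 and 118 CPM in WT and 36.6 and 102 CPM in *Grhl3*-null libraries. Its mean was thus lower in *Grhl3*-null libraries also in cells that should lack these genes, and the part of free RNA in the NMP values was not tested.

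Planar cell polarity genes, which steer convergent extension and with which *Grhl3* interacts genetically, moved in both directions. Of 18 tested, 6 were called, 3 higher and 3 lower, and 12 were not, beside 20.2% of all genes called. The median log2 fold change of the list was 0.04. *Fzd7*, a WNT receptor, was at 11.6 and 11.7 CPM in WT and 18.3 and 18.6 CPM in *Grhl3*-null NMPs (log2 fold change 0.64 ± 0.05). *Ptk7*, a co-receptor, was at 127 and 132 against 108 and 112 CPM (-0.25), and *Vangl2*, a core component, at 70.1 and 71.5 against 78.1 and 80.2 CPM (0.14). *Arhgef19*, a RhoA exchange factor, fell from 30 and 24 UMIs to 11 and 8 (-1.25 ± 0.35, adjusted p = 0.034). Its call was lost in 11 of 14 alternatives, and that of *Vangl2* in 9 of 16.

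Of the 15 largest falls, 11 were called in both sexes, and 3 of the 15 lay within 5 Mb of *Grhl3*. *Stmn1*, a microtubule regulator 1.09 Mb from *Grhl3* on chromosome 4, was at 977 and 1024 CPM in WT and 328 and 388 CPM in *Grhl3*-null NMPs (log2 fold change -1.50 ± 0.06, adjusted p = 5.9e-06). *Tcea3*, a transcription elongation factor 0.704 Mb away, was at 46.3 and 49.7 against 20.5 and 24.0 CPM. Within 5 Mb of *Grhl3*, which spans chr4:135541888-135573630 in GRCm38 and was left out of the count, 43 of 130 genes (33.1%) were called and 9 (6.92%) changed at least 2-fold. On all other chromosomes 20.01% were called and 1.40% changed at least 2-fold.

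Of the 15 largest rises, 3 were called in both sexes. These genes, *Gm10036*, *Gm10093* and *Gm10282*, are near-identical copies of *Rpl11*, *Hdac1* and *Hmgn2*, with 99.3%, 99.4% and 99.3% identity over their whole length. *Gm10036* was at 4.58 and 4.71 CPM in WT and 349.6 and 309 CPM in *Grhl3*-null NMPs, and *Rpl11* fell from 3670 and 3661 to 3020 and 2997 CPM. *Gm10093* went from 0.747 and 0.645 to 46.7 and 43.1 CPM, and *Hdac1*, a histone deacetylase gene 6.03 Mb from *Grhl3*, from 141 and 138 to 58.3 and 57.5 CPM. The sum of *Gm10093* and *Hdac1* was 142 and 139 CPM in WT and 105 and 101 CPM in *Grhl3*-null NMPs. Reads of such pairs can be assigned to either copy, so the values of each gene alone are uncertain.

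Of 12 epithelial-mesenchymal transition and adhesion genes, 4 were higher and 4 lower, and of 10 genes of mesoderm entry other than *Tbx6* 3 were higher and 1 lower. *Pcdh19*, a protocadherin, had the largest change of the called mesoderm entry genes, 0.73, and was called in neither sex alone. In the same list *Mesp1* and *Mixl1* had -0.90 and -0.77 and were not called. Of 9 trunk-to-tail regulators, 3 were higher and 2 lower. Glycolysis genes were 6 higher and 3 lower of 16, S-phase genes 0 higher and 3 lower of 16, G2/M genes 2 higher and 1 lower of 16, and p53 targets 1 higher and 4 lower of 10. Genes induced by dissociation were 1 higher and 6 lower of 11, with a median of -0.25, and mitochondrially encoded genes 3 higher and 0 lower of 13. Of the 15 NMP markers that the study chose on these samples, 13 were not used by the rule, and of these 3 were higher and 4 lower, with a median of 0.00041.

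Markers of other cell types are given by their counts, beside 20.2% of all genes called. Gut endoderm markers were 1 higher and 2 lower of 8, visceral endoderm 1 higher of 7, endothelium 2 higher of 7, erythroid cells 1 higher of 7, notochord 1 higher of 6 and lateral plate 2 higher and 1 lower of 8. Presomitic markers other than *Tbx6* were 0 higher and 1 lower of 6, and germ cell markers 0 higher and 1 lower of 5. The visceral endoderm list had a median log2 fold change of 1.62. Its summed level was 41.5 and 10.8 CPM in WT and 41.9 and 100 CPM in *Grhl3*-null NMPs. The erythroid list summed to 361 and 32.3 CPM in WT and 114 and 258 CPM in *Grhl3*-null NMPs, so libraries of the same genotype differed widely. The 4 Y-linked genes were all higher, with a median of 0.78, in step with the higher male share of *Grhl3*-null NMPs.

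The genotype difference of NMPs was then compared with that of preneural cells in 1 model with library as a block. Of 13750 genes, 173 (1.26%) differed, 74 (0.538%) with the more positive fold change in NMPs and 99 (0.72%) with the more negative. *Fgf8* had a log2 fold change of 0.06 in NMPs and of -0.70 in preneural cells, a difference of 0.75. In preneural cells *Fgf8* was at 44.9 and 53.5 CPM in WT and 30.4 and 31.2 CPM in *Grhl3*-null libraries. Preneural cells were defined by 0 *T* UMIs, so for *Fgf8*, and for any other gene that goes with *T* across cells, the difference is not independent of the rule and is given as a description.

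*Hoxc10* and *Hoxa10* had more negative fold changes in NMPs than in preneural cells, with differences of -2.75 (adjusted p = 8.0e-06) and -1.61 (adjusted p = 5.9e-04). *Hoxc10* in preneural cells was at 35.6 and 27.0 CPM in WT and 3.86 and 7.77 CPM in *Grhl3*-null libraries. In *Grhl3*-null libraries NMPs held 1.97 and 1.74 CPM of *Hoxc10* and endothelial cells 2.46 and 3.84 CPM. At levels this near the background, the size of the *Hoxc10* difference is uncertain. For *Meox1*, *Tcf15* and *Foxc2* the fold changes in NMPs exceeded those in preneural cells by 0.91, 1.05 and 1.15. In preneural cells *Meox1* was at 27.7 and 19.8 CPM in WT and 30.9 and 30.6 CPM in *Grhl3*-null libraries. *Cldn7* fell in both populations, by 0.68 in NMPs and by 1.80 in preneural cells. *Pitx1*, a homeobox gene of hindlimb and caudal mesoderm, was higher in *Grhl3*-null preneural cells (19.8 and 12.3 against 37.6 and 38.3 CPM) and at 13.0 and 10.8 against 7.03 and 7.80 CPM in NMPs, a difference of -1.93.

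Against presomitic cells, 1035 of 14441 genes (7.17%) differed, 480 (3.32%) more positive in NMPs and 555 (3.84%) more negative. *Sox3* was at 6.19 and 6.86 CPM in WT and 13.8 and 12.7 CPM in *Grhl3*-null presomitic cells. In NMPs it was at 46.6 and 46.0 against 42.5 and 40.9 CPM, a difference of -1.18. *Apela*, the gene of a secreted peptide of the epiblast, was higher in *Grhl3*-null presomitic cells (12.3 and 12.7 against 21.8 and 24.3 CPM) and lower in *Grhl3*-null NMPs (38.6 and 36.9 against 25.7 and 27.9 CPM), a difference of -1.38 (adjusted p = 7.9e-09). *Fgfbp3*, an FGF-binding protein, differed by -1.14. The rule required *Sox2* in NMPs but not in presomitic cells, where *Sox2* was at 17.9 and 19.8 CPM in WT and 39.2 and 36.5 CPM in *Grhl3*-null libraries. For any gene that goes with *Sox2* across cells, the difference is not independent of the rule. Those of *Sox3* and *Fgfbp3* are therefore given as descriptions.

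*Nkd2* and *S1pr3* were among the genes more positive in NMPs. *Nkd2*, a WNT antagonist, was at 29.2 and 33.8 CPM in WT and 14.3 and 13.8 CPM in *Grhl3*-null presomitic cells, while NMPs held 4.41 to 5.43 CPM in all 4 libraries, a difference of 1.30. *S1pr3*, a sphingosine-phosphate receptor, differed by 1.62. Neural genes were 1 more positive and 10 more negative of 17 in NMPs than in presomitic cells, with a median of -0.49, and the somite list 4 more positive of 8. The neural count is a description, because the rule required *Sox2* in NMPs and not in presomitic cells. Against preneural cells the somite list was 3 more positive of 8, with a median of 0.64.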

How the data were processed

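Cells came from the caudal regions of E8.5 WT and *Grhl3*-null embryos, 2 libraries for each genotype. The authors aligned reads of a 3′ 10x kit to mm10 with Cell Ranger (3.0.0 per the file headers), and the deposited values are raw UMI counts per gene and cell, with no normalization. Every count was used as deposited. Barcodes were kept with a minimum of 3000 genes and of 7500 UMIs and no more than 7% of UMIs from mitochondrial genes, 20198 in all. A chi-square test over genes of the 2 WT and of the 2 *Grhl3*-null NMP sums gave 3.59 and 4.18 per degree of freedom, above the value of sampling alone, so the libraries were kept as separate samples. Depth was 32684948 to 40334042 UMIs over the NMPs of a library. The members of the population and the gene lists were chosen with earlier results of these data known.

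UMIs were summed per library and class and tested with edgeR 4.0.16 (R 4.3.3; TMM scaling, filterByExpr, quasi-likelihood test, Benjamini-Hochberg adjustment over all genes tested), with DESeq2 1.42.0 as an alternative. The test was tested on simulated data with known changes. A male cell held 2 or more UMIs from 4 genes of the Y chromosome and no more than 2 from *Xist*, and a female cell 3 or more from *Xist* and no more than 1 from the Y chromosome. Doublets were scored with Scrublet in scanpy 1.11.5. Shares had Clopper-Pearson intervals and exact permutation tests (scipy 1.17.1). Replicate numbers 1 and 2 are shared by the genotypes, but the deviations of same-numbered libraries correlated at only 0.0099, so they were not taken as pairs. Other settings were DESeq2, other size factors, no filter, a replicate block, each library left out, doublets removed, 5% mitochondrial UMIs, the rule after thinning to 7500 UMIs, *Nkx1-2* at 3 UMIs, no *Tbx6* UMI, and each sex alone. Cells without *Hoxc10* and the genotype by sex term were added after the data were seen.

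Named genes were the 5 markers, up to 4 called genes of each list by size of change, the 15 largest called changes of each sign with a mean of at least 10 CPM, the 5 of each sign in each interaction test, the 20 genes of largest fold over other cells and the 10 of each sign along the *T* to *Sox2* balance. *Pax3*, *Hoxb9*, *Cdx2* and the copies *Rpl11* and *Hmgn2* were named after their values were seen. A few genes that this rule names are not reported here.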

Additional observations from a re-analysis of the deposited data

Results flagged for a closer look

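The genotype difference of 10 genes differed between NMPs and preneural cells by edgeR's interaction term. The differences of log2 fold changes, NMPs minus preneural cells, were 1.15 for *Foxc2*, 1.11 for *Cldn7*, 1.05 for *Tcf15*, 0.95 for *Arg1* and 0.91 for *Meox1*. They were -2.75 for *Hoxc10*, -1.93 for *Pitx1*, -1.89 for *Acta2*, -1.61 for *Hoxa10* and -1.49 for *Hand1*.

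Against presomitic cells, the differences were 1.62 for *S1pr3*, 1.30 for *Nkd2*, 1.07 for *Rasgrp3* and 1.07 for *Mfap4*. They were -1.38 for *Apela*, -1.18 for *Sox3*, -1.14 for *Fgfbp3*, -1.09 for *Hsd11b2* and -1.07 for *Timp3*. Those of *Sox3* and *Fgfbp3* are descriptions, because the rule required *Sox2* in NMPs and not in presomitic cells.

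Between male and female NMPs, in the model added after the data were seen, the differences of log2 fold changes were 3.58 for *Meox1*, 3.12 for *Fst*, 3.02 for *Tcf15*, 2.99 for *Arg1* and 2.07 for *Hoxc10*. They were -2.88 for *Kdr*, -2.16 for *Pitx1*, -1.88 for *Foxf1*, -1.53 for *Eif2s3y*, a Y-linked gene, and -1.28 for *Hes5*. *Eif2s3y* was among the genes that called the sex of a cell, which held its female level near the floor. Its difference is therefore not independent of the sex call and is no finding. The 2 sexes come from different embryos of each pool.

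The gene reference of the files holds a *LacZ* reporter. *LacZ* had 13 and 22 UMIs in all filtered cells of *Grhl3*-null libraries 1 and 2, of which 2 and 5 UMIs were in NMPs. It had 0 UMIs in the WT libraries. The labels name no reporter in these embryos.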

How the results depend on the processing

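Of 113 values for single genes or single interactions, 109 were called, 23 kept their direction and side of the threshold under every alternative run for them, and 35 changed sign under at least 1. The 23 include *Hoxc10*, *Hoxa10*, *Hoxd9*, *Hoxd10*, *Stmn1*, *Hdac1*, *Tcea3*, *Wnt7b*, *Grhl3*, *Dlx5* and *Pax3* in NMPs and *Apela* and *Sox3* against presomitic cells. The *Sox3* difference stays a description, because every alternative required *Sox2* in NMPs. None summed *Hdac1* with its near-identical copy *Gm10093*, so the value of *Hdac1* alone stays uncertain.

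The share of NMPs was lower in *Grhl3*-null libraries by 2.12 to 2.65 points with any 1 library left out. The difference was -0.439 points after thinning, -4.55 in male and -0.867 in female cells. The share with *T* differed by -11.7 to -6.97 points with 1 library left out, by -0.106 after thinning, -15.7 in male, -5.82 in female and -5.45 in *Hoxc10*-negative cells.

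The 2824 genes called between genotypes became 1173 with DESeq2, 1856 without the filter, 581 after thinning, 524 in male NMPs and 1421 to 2191 with 1 library left out, the lowest without *Grhl3*-null library 1. The 173 genes that differed from preneural cells became 39 with DESeq2, 110 in male and 62 in *Hoxc10*-negative cells, and 97 to 333 with 1 library left out, the lowest without *Grhl3*-null library 1 and the highest without WT library 1. The 1035 that differed from presomitic cells became 170 with DESeq2, 365 in male, 447 in female and 451 in *Hoxc10*-negative cells, and 386 to 943 with 1 library left out, the lowest again without *Grhl3*-null library 1. The sex term called 1001 genes with the more positive and 629 with the more negative male fold change, and 359 and 118 with DESeq2. Fewer cells enter the thinned and single-sex settings; otherwise the cause was not tested.

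With the replicate number as a block, though the numbers do not pair the libraries, 3663 genes were called between genotypes, 353 against preneural and 1266 against presomitic cells.

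Log2 fold changes that turned sign were, in male NMPs, *Nkx1-2* 0.036, *Fgf8* -0.17, *Pou5f1* 0.041, *Fdps* 0.22, *Cdx1* 0.11, *Fgf18* 0.013, *Spry2* -0.022, *Wnt8a* 0.15, *Hes5* -0.25, *Fst* 0.98, *Cited1* -0.21 and, against preneural cells, *Acta2* 0.39. In female NMPs they were *T* 0.29, *Wnt3a* 0.088, *Nr2f1* -0.079, *Meox1* -0.46, *Foxc2* -0.080, *Tcf15* -0.17, *Foxc1* -0.081, *Fgf15* -0.16, *Fgfr3* -0.11, *Fgfr2* -0.37, *Sfrp1* -0.16, *Rarb* -0.021, *Nrarp* 0.077, *Pcdh8* -1.34 and *Cdx2* 0.016. After thinning they were *T* 0.17, *Sox2* -0.048, *Krt18* 0.43, *Epcam* 0.25, *Fgf15* -0.12, *Wnt6* 0.85, *Nrarp* 0.0079, *Pcdh8* -1.65 and *Cldn7* 1.73. In *Hoxc10*-negative cells they were *Fgf8* -0.022, *Hoxd8* 0.0014, *Fgf18* 0.20, *Sfrp1* -0.00053, *Nrarp* 0.0012 and, against preneural cells, *Hand1* 0.087. *T* ranged from -0.19 to 0.16 and *Fgf8* from -0.017 to 0.13 with 1 library left out, the sign turning without WT library 2 for *T* and without WT library 1 for *Fgf8*. *T* was 0.022 at 5% mitochondrial UMIs, and *Dll3* 0.0081 with doublets removed.

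The limits are the pools. Each genotype is 1 pool, so no p-value holds the spread between embryos, and the sexes of the pooled embryos differ between genotypes. NMPs rest on 1 UMI of *T* in up to 24.6% of cells. A level under 3 UMIs per library cannot be told from 0.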
